A study of Mus musculus with 9 samples.

Results

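The 8 genes described here encode ligands and receptors of the colony-stimulating factor families: Csf1 and Il34 with their shared receptor Csf1r, Csf2 with its receptor chain Csf2ra, the beta chains Csf2rb and Csf2rb2, and the interleukin-3 receptor chain Il3ra. They were chosen by name, by a rule that uses no measured value but with earlier results of these data known, from the 27179 gene identifiers of the deposited count table, and all 8 were found there. RNA sequencing of spinal cord was done in 3 groups, each of 3 biological replicates from C57BL/6 mice. The EAE+EHP-101 group had experimental autoimmune encephalomyelitis (EAE, a model of multiple sclerosis in which the immune system attacks the central nervous system) and received EHP-101, a compound known here by its code name, by mouth at 20 mg/kg; it is called treated below. The EAE group had the disease without the compound, and the Control group had neither. The immunising antigen, the time of sampling, the length of treatment, the sex and age of the mice, whether a replicate pools animals and whether the EAE or Control mice received a vehicle were not stated in any source used here. The design asks which transcripts change in the diseased cord and which of them differ when the compound is given.

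Csf1r is a tyrosine kinase receptor of macrophages and microglia, the resident phagocytes of the central nervous system, which need it to survive. Its ligands are CSF-1, made in the cord by astrocytes, neurons and other cells, and IL-34, made in the nervous system mainly by neurons. Csf2 encodes GM-CSF, a cytokine released by activated T cells that acts on monocytes, granulocytes and dendritic cells, and mice without it are known to resist EAE. Its receptor pairs the alpha chain Csf2ra, which binds the ligand, with the common beta chain Csf2rb, which signals through the kinase JAK2 and the factor STAT5 and also serves IL-3 and IL-5. Mice carry a further beta chain, Csf2rb2, which works with Il3ra for IL-3 alone.

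The beta chain genes lie next to each other on chromosome 15 in opposite orientation, Csf2rb2 on the minus strand from 78282510 to 78305603 and Csf2rb on the plus strand from 78325990 to 78351001 (mm10). They are near copies, and the following stretches are shown because they bear on how far 50-base reads can be assigned to either gene. In GENCODE M21 transcripts (GRCm38) their coding sequences were identical at 95.2% of 2628 aligned bases, and 18.9% of the 50-base windows of the Csf2rb transcript and 19.0% of those of Csf2rb2 were found without a mismatch in the other gene. No source used here states how multiply mapped reads were counted, so the split between these genes is uncertain for that share. The longest identical coding run within a single exon had 242 bases, at chr15:78348577-78348818 (plus strand) in Csf2rb and chr15:78284630-78284871 (minus strand) in Csf2rb2. The most different coding window of 90 bases held 16 mismatches, printed in capitals, at chr15:78338897-78338986 (plus strand) in Csf2rb and chr15:78294345-78294434 (minus strand) in Csf2rb2.
Csf2rb and Csf2rb2, identical run: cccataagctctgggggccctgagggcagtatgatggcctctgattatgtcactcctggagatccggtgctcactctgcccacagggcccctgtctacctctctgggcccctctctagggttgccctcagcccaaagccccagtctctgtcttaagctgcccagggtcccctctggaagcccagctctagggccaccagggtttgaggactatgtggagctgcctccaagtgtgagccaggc
Csf2rb, most different window: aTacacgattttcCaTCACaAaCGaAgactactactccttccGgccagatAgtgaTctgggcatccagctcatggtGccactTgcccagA
Csf2rb2, most different window: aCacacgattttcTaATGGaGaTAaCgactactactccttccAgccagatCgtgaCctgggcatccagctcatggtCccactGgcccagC

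The promoter of Csf2rb2 is shown because the gene had the largest fold change of the 7 tested in EAE. It is the RefSeq window of GRCm38.p6 from 250 bases before to 50 after the start site, chr15:78305672-78305971 on the minus strand, whose start lies 118 bases outside the deposited gene model. Capitals mark TTCNNNGAA, the core bound by STAT factors, with its first base at -15, and ACTTCCTC, the reverse complement of GAGGAAGT, a sequence bound by the myeloid factor PU.1, with its first base 28 bases into the transcript. The motifs, searched on both strands, were picked after these sequences were seen. Of 32851 RefSeq promoter windows 3.20% held GAGGAAGT and 8.30% held TTCNNNGAA, so these matches are a description and no evidence of binding. Windows of Csf1, Csf2, Csf2ra and Il3ra were also read and held neither motif, and GGAAATCC, a form bound by NF-kappaB, was found in Csf2 alone of these 5 genes and in 1.16% of all windows.
Csf2rb2 promoter: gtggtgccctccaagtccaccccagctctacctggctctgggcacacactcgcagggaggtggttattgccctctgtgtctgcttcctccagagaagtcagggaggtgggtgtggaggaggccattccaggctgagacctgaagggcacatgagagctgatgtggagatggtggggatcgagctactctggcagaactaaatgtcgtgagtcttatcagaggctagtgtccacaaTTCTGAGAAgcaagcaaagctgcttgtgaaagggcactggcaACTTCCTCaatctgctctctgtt

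The libraries held 30448507 to 32661741 counts, and no library repeated another of its group within counting noise. Markers of cord tissue were present throughout, with none of 12 neuron or 9 oligodendrocyte markers at 0 in any group. Treated replicate 1 had the lowest value of its group for 6 of the 7 genes above the count filter, and EAE replicate 3 likewise for 6 of 7. Calls of single members that involve treated replicate 1 are given with and without it. Control replicate 3 stood farther from the other Control libraries (chi-square of 26.9 and 24.7 per degree of freedom) than they did from each other (8.27). Its summed oligodendrocyte markers reached 39463 CPM, against 29000 and 29547 CPM in the other Control libraries, and its endothelial markers 212 CPM, against 332 and 308 CPM. The correlation of gene length with a library's deviation from the mean of all libraries, Spearman's rho across genes, also moved with the groups. It lay between -0.335 and -0.0300 in treated, between -0.327 and -0.259 in EAE and between 0.244 and 0.410 in Control libraries, and its part in the results was not tested beyond the fit with the trend removed. Levels below are read counts scaled to a common depth by TMM library sizes (CPM), with mean ± SD and n = 3 per group. Tests are edgeR's quasi-likelihood test on the counts with Benjamini-Hochberg adjustment over all 16749 genes tested, and a gene was called at an adjusted p under 0.05.

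**Figure D1:**
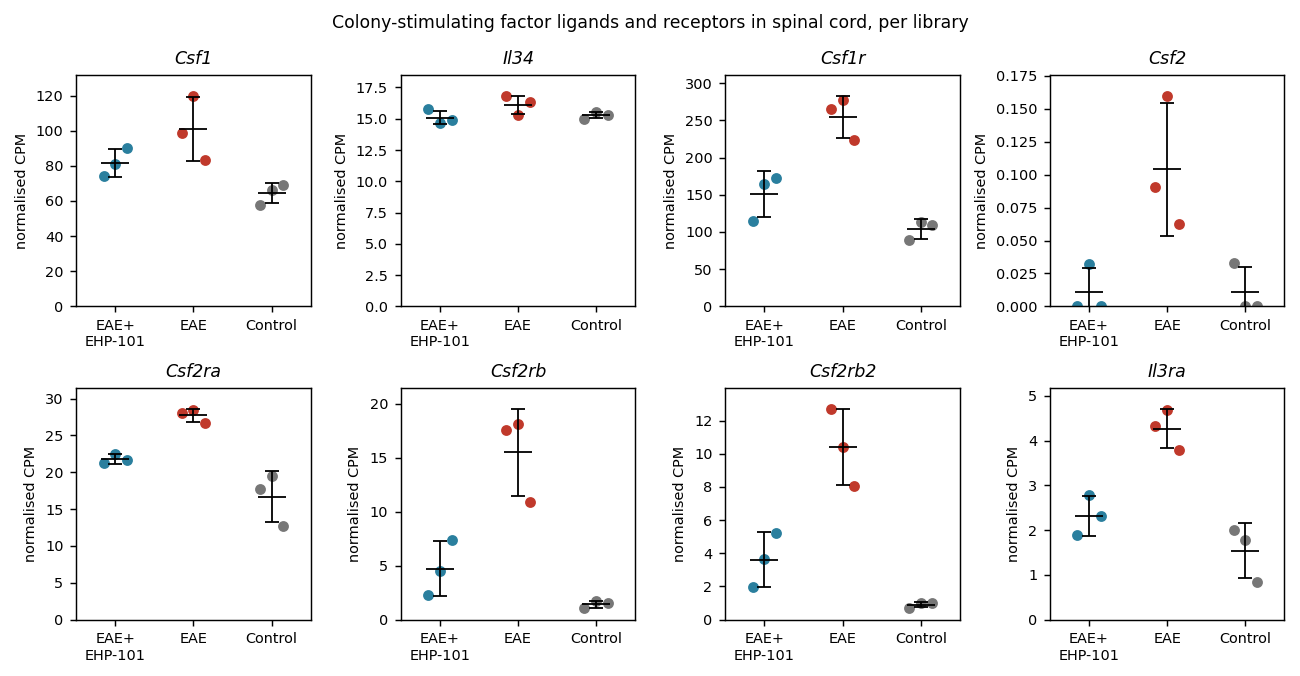
Normalised CPM (vertical axes, each from 0) of the 8 genes in the 3 treated, 3 EAE and 3 Control libraries. Points are libraries, the horizontal mark is the group mean and the bar is ± SD. All EAE libraries lie above all Control libraries for 6 of the 7 tested genes, which was so for 25.6% of all genes tested, and also for Csf2, while Il34 overlaps.

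EAE was first set against Control, to ask how the disease changes this family. Of the 7 genes tested 6 were called higher in EAE and 0 lower, where 37.0% of all genes tested were called, 20.2% higher and 16.7% lower. With each library's gene length trend removed 6 were called as well. The beta chains had the largest differences, Csf1r, Csf2ra and Il3ra smaller ones, and the ligand Csf1 a modest one, while Il34 was not called. The spinal cord was sequenced as a whole tissue, so more cells of a type and more RNA per cell cannot be told apart in these values.

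Among the ligands of Csf1r, Csf1 (chromosome 3, 107741048 to 107760469, minus strand) stood at 98.6, 120 and 83.2 CPM in EAE libraries, against 57.9, 66.1 and 68.9 CPM in Control libraries. The groups did not overlap, and EAE averaged 100.5 ± 18.3 CPM against 64.3 ± 5.70 CPM in Control, a rise of 1.56-fold (log2 0.64, SE 0.12, adjusted p = 0.00202). Il34 (chromosome 8, 110741829 to 110805903, minus strand), the neuronal ligand, had 16.8, 15.3 and 16.3 CPM in EAE, against 15.04, 15.53 and 15.27 CPM in Control. These ranges overlapped, and the fitted difference was log2 0.08 (SE 0.07, adjusted p = 0.431) with a 95% interval of 0.945-fold to 1.18-fold, so a change larger than that is outside the interval. The receptor Csf1r (chromosome 18, 61105572 to 61131139, plus strand) had 265, 277 and 223 CPM in EAE, against 89.1, 113 and 110 CPM in Control. It rose 2.45-fold (log2 1.29, SE 0.15, adjusted p = 0.000110), and its lowest EAE library lay well above its highest Control library.

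The chains of the GM-CSF and IL-3 receptors also rose. Csf2rb had 17.6, 18.1 and 10.9 CPM in EAE, against 1.05, 1.71 and 1.54 CPM in Control, a rise of 10.8-fold (log2 3.43, SE 0.37, adjusted p = 8.61e-05). Csf2rb2 had 12.7, 10.4 and 8.08 CPM in EAE, against 0.723, 0.981 and 0.983 CPM in Control, a rise of 11.6-fold (log2 3.53, SE 0.33, adjusted p = 3.89e-05). In both genes the groups were far apart, on 1498 counts summed over the EAE libraries against 133 over Control libraries for Csf2rb, and 1004 against 83 for Csf2rb2. Csf2ra (chromosome 19, 61224402 to 61228418, minus strand), the chain that binds GM-CSF, had 28.0, 28.4 and 26.7 CPM in EAE, against 17.7, 19.5 and 12.7 CPM in Control. It rose by 1.66-fold (log2 0.73, SE 0.12, adjusted p = 0.00101), with a tighter group in EAE than in Control, where replicate 3 was the lowest. Il3ra (chromosome 14, 14346495 to 14355490, plus strand), the IL-3 binding chain, had 4.32, 4.68 and 3.80 CPM in EAE, against 2.004, 1.772 and 0.852 CPM in Control. Its rise was 2.76-fold (log2 1.46, SE 0.26, adjusted p = 0.00134), and Control replicate 3 was again the lowest library. All 6 calls held under each of the 17 alternatives run, including each library left out in turn.

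Csf2 itself (chromosome 11, 54247270 to 54249899, minus strand) was close to the limit of detection and did not pass the count filter. It had 0, 1 and 0 counts in the treated libraries, 3, 5 and 2 in the EAE libraries and 1, 0 and 0 in the Control libraries. The ratio of 10 counts in EAE to 1 in Control, scaled for library size, was 9.60 with an exact 95% interval of 1.37 to 417 that covers counting error only. For treated mice against EAE, 1 count against 10, the ratio was 0.103 (0.00238 to 0.725). With no count filter edgeR gave log2 2.86 and an adjusted p = 0.0750 for EAE against Control and log2 -2.87 and an adjusted p = 0.242 for treated mice against EAE, so Csf2 was called in neither. A difference of this transcript between groups was thus seen in counts but not shown at this depth.

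**Figure D2:**
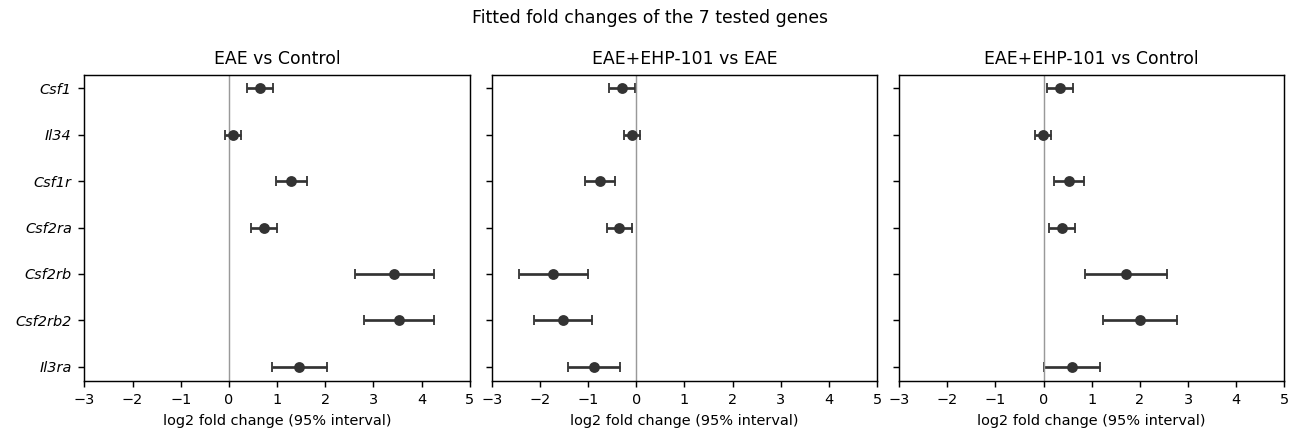
Fitted log2 fold changes (horizontal axes) with 95% intervals for the 7 tested genes in the 3 comparisons, the first-named group over the second. The intervals are per gene, with no adjustment for the number of genes. Csf2rb and Csf2rb2 lie farthest from 0 in each panel, at log2 3.43 and 3.53 for EAE against Control, and Il34 lies nearest to 0.

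Treated mice were then set against EAE mice, which asks what differs in diseased cord when the compound is given. Csf1r and both beta chains were called lower in treated mice, 3 of the 7 tested, with 0 called higher. Over all genes 5.24% were called, 4.81% lower and 0.430% higher. All treated libraries lay below all EAE libraries for 5 of the 7, and for 16.9% of all genes tested. Il3ra, Csf2ra, Csf1 and Il34 were not called.

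Csf1r had 115, 165 and 172 CPM in treated libraries, against 265, 277 and 223 CPM in EAE libraries, and the groups did not overlap. It fell 1.69-fold (log2 -0.76, SE 0.14, adjusted p = 0.0110). Without treated replicate 1 the difference was log2 -0.59 (adjusted p = 0.0142), and without EAE replicate 2 the call ended (log2 -0.69, adjusted p = 0.0525). Csf2rb had 2.30, 4.53 and 7.33 CPM in treated libraries, against 17.6, 18.1 and 10.9 CPM in EAE libraries, a fall of 3.29-fold (log2 -1.72, SE 0.32, adjusted p = 0.0103). The treated libraries spread widely, at 4.72 ± 2.52 CPM, yet all lay below all EAE libraries. Without treated replicate 1 the value was log2 -1.38 (adjusted p = 0.0106), and without treated replicate 2 the call ended (log2 -1.69, adjusted p = 0.0507). Csf2rb2 had 1.95, 3.65 and 5.25 CPM in treated libraries, against 12.7, 10.4 and 8.08 CPM in EAE libraries, a fall of 2.87-fold (log2 -1.52, SE 0.28, adjusted p = 0.00910) that held with each library left out (log2 -1.22, adjusted p = 0.00839, without treated replicate 1). The order of the treated libraries, replicate 1 lowest and replicate 3 highest, was the same for Csf1r, Csf2rb and Csf2rb2.

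Il3ra had 1.89, 2.78 and 2.31 CPM in treated libraries, against 4.32, 4.68 and 3.80 CPM in EAE libraries. Its fitted difference was log2 -0.88 (SE 0.25, adjusted p = 0.0709), which missed the threshold although the libraries did not overlap. The DESeq2 Wald test and the fit of these 2 groups alone both called it (adjusted p = 0.0256 each). Csf2ra had 21.2, 22.5 and 21.7 CPM in treated libraries, against 28.0, 28.4 and 26.7 CPM in EAE libraries, with log2 -0.35 (SE 0.12, adjusted p = 0.156), and only the fit of these 2 groups alone (adjusted p = 0.0172) and the one without Control replicate 3 called it. Without Control replicate 3, the lowest library of both genes, Il3ra and Csf2ra were called in treated mice against EAE (adjusted p = 0.0128 for Il3ra and 0.00957 for Csf2ra). Csf1 had 74.0, 81.1 and 90.1 CPM in treated libraries, against 98.6, 120 and 83.2 CPM in EAE libraries, and these ranges overlapped. Its difference was log2 -0.30 (SE 0.12, adjusted p = 0.239), with a 95% interval of 0.676-fold to 0.978-fold before adjustment for the number of genes. Il34 averaged 15.1 ± 0.553 CPM in treated mice and 16.1 ± 0.750 CPM in EAE mice (log2 -0.09, SE 0.07, adjusted p = 0.599, interval 0.840-fold to 1.05-fold).

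Treated mice were also set against Control, to ask how far the treated cord stood from the healthy one. This comparison shares its libraries with the others, so its values stand beside theirs and are not independent of them. Of the 7 genes 4 were called higher in treated mice and 0 lower, where 19.8% of all genes were called, 9.96% higher and 9.82% lower. All treated libraries lay above all Control libraries for 5 of the 7, and for 19.0% of all genes tested. With library totals in place of TMM factors the split over all genes was 2176 higher and 1319 lower, against 1669 and 1645.

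Csf2rb2 averaged 3.62 ± 1.65 CPM in treated mice and 0.895 ± 0.150 CPM in Control, higher by 4.02-fold (log2 2.01, SE 0.35, adjusted p = 0.00619), a call that held with each library left out (log2 2.30, adjusted p = 0.000264, without treated replicate 1). Csf2rb averaged 4.72 ± 2.52 CPM in treated mice and 1.43 ± 0.341 CPM in Control, higher by 3.28-fold (log2 1.71, SE 0.39, adjusted p = 0.0145). For both, every treated library lay above every Control library, but the Csf2rb call ended without treated replicate 2 (adjusted p = 0.0565) or 3 (adjusted p = 0.0563). Without treated replicate 1 it was log2 2.04 (adjusted p = 0.00130). Csf1r averaged 151 ± 30.9 CPM in treated mice and 104 ± 13.1 CPM in Control (1.45-fold, log2 0.53, SE 0.15, adjusted p = 0.0273). Its treated replicate 1 at 115 CPM was close to Control replicate 2 at 113 CPM. The Csf1r call ended without Control replicate 1 (adjusted p = 0.0813) or 2 (0.0511) and without treated replicate 2 (0.123) or 3 (0.109). Without treated replicate 1 the difference was log2 0.69 (adjusted p = 0.00215).

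Csf2ra averaged 21.8 ± 0.637 CPM in treated mice and 16.7 ± 3.51 CPM in Control, just past the threshold at 1.31-fold (log2 0.39, SE 0.12, adjusted p = 0.0483). Over 17 alternatives adjusted p ran from 0.0285 to 0.163 and the call held in 6. It ended without any 1 treated library (0.0663 without replicate 1, 0.163 without 2 and 0.118 without 3), any 1 EAE library (0.0599 to 0.0768) or Control replicate 1 (0.0659). It also ended with DESeq2 size factors (0.0535), upper quartile factors (0.0533), the gene length trend removed (0.163) and a fit of these 2 groups alone (0.0839). Csf1 averaged 81.7 ± 8.03 CPM in treated mice and 64.3 ± 5.70 CPM in Control (log2 0.35, SE 0.12, adjusted p = 0.0675). It was not called, though all treated libraries lay above all Control libraries and 6 of 17 alternatives called it, one of them the fit without treated replicate 1 (adjusted p = 0.0479). Il3ra, at 2.32 ± 0.447 CPM in treated mice and 1.54 ± 0.609 CPM in Control, had overlapping libraries and log2 0.59 (SE 0.27, adjusted p = 0.144). Il34 was at log2 -0.01 (SE 0.07, adjusted p = 0.913, interval 0.886-fold to 1.11-fold).

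**Figure D3:**
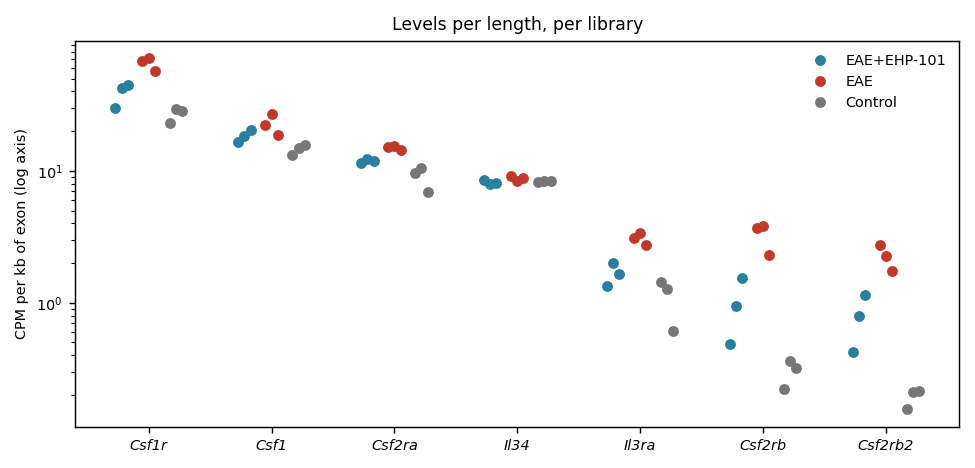
CPM per kb of exon on a log axis for the 7 genes with more than a few counts, with treated, EAE and Control libraries side by side. Points are libraries. Csf1r is the highest gene in every group and the beta chains shift most between groups, from 2.29 to 3.80 CPM per kb in EAE libraries and 0.221 to 0.359 CPM per kb in Control libraries for Csf2rb.

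Levels of different genes were compared per kb of exon. Csf1r led in every group, with a mean level of 38.9 ± 7.98 CPM per kb in treated mice, 65.8 ± 7.28 in EAE and 26.9 ± 3.39 in Control. Csf1 was next in level, with 18.5, 22.7 and 14.5 CPM per kb in treated, EAE and Control mice, then Csf2ra with 11.8, 14.98 and 9.01 and Il34 with 8.23, 8.77 and 8.31. The ranges of Csf2ra and Il34 overlapped in Control libraries but not in treated or EAE libraries. In EAE the levels of Csf2rb (3.26 CPM per kb), Il3ra (3.06) and Csf2rb2 (2.25) followed, and neighbours in that order overlapped. In Control libraries Il3ra (1.11 CPM per kb) stood above Csf2rb (0.301), and Csf2rb above Csf2rb2 (0.194), with no overlap between neighbours.

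Pairs of genes were also compared within each library, as a description with no test. The level of Csf1 per kb exceeded that of Il34 by log2 0.96, 1.19 and 1.33 in treated libraries, 1.29, 1.70 and 1.09 in EAE libraries and 0.68, 0.82 and 0.91 in Control libraries. Treated and EAE libraries overlapped, and both lay above all Control libraries. The common beta chain was scarce beside the GM-CSF binding chain, since the level of Csf2rb per kb was 0.0421, 0.0782 and 0.131 times that of Csf2ra in treated libraries, 0.244, 0.247 and 0.159 times in EAE libraries and 0.0230, 0.0340 and 0.0469 times in Control libraries. All treated libraries lay below all EAE libraries, and treated replicate 1 was within the Control range. The beta chains differed less from each other, with Csf2rb per kb at 1.14 to 1.35 times Csf2rb2 in treated libraries, 1.31 to 1.69 times in EAE libraries and 1.41 to 1.69 times in Control libraries. The part of reads shared between these near copies in this ratio was not tested.

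Csf1r was set beside 12 markers of homeostatic microglia in the same libraries. Of these 10 rose in EAE and 0 fell, with a median of log2 1.17 beside 0.01 over all genes, and in treated mice against EAE 8 fell and 0 rose (median log2 -0.82). These calls stand beside 20.2% of all genes called higher in EAE and 4.81% lower in treated mice against EAE. Among the markers higher in EAE were Olfml3 (log2 1.56, SE 0.14), the fractalkine receptor Cx3cr1 (log2 1.61, SE 0.17) and Tmem119 (log2 1.46, SE 0.16), and Fcrls was lower in treated mice than in EAE (log2 -1.35, SE 0.20). Those not called in EAE were P2ry12 (log2 0.34, SE 0.16, adjusted p = 0.129) and Sall1 (log2 -0.03, SE 0.07, adjusted p = 0.720). P2ry12 and Sall1 were named after their values were seen. The summed level of the 12 markers was 473, 640 and 624 CPM in treated libraries, 1065, 1187 and 870 CPM in EAE libraries and 404, 423 and 507 CPM in Control libraries. As for Csf1r, EAE was above both other groups and treated replicate 1 was lowest in its group, here within the Control range. Relative to the mean log2 level of these markers Csf1r stood at log2 2.05 ± 0.13 in treated mice, 2.11 ± 0.04 in EAE and 1.87 ± 0.19 in Control (SD, n = 3 each). EAE and Control differed by 0.24 in this log2 ratio and treated and EAE mice by -0.06, both smaller than the log2 fold changes of Csf1r itself. Against the summed marker CPM the same differences were 0.07 and 0.07, so the sign of the second depends on how the markers are combined. The part of cell number in Csf1r was not tested.

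**Figure D4:**
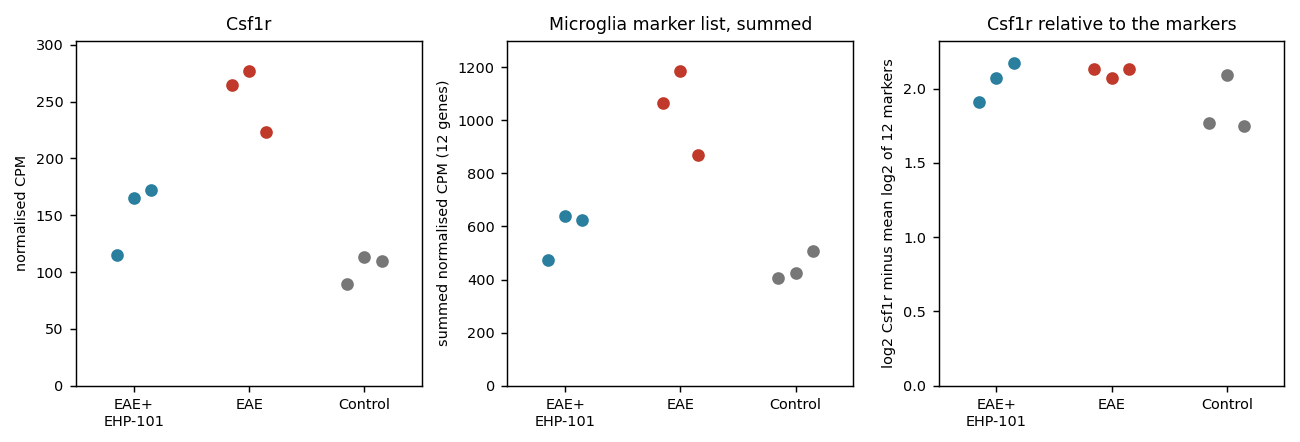
Csf1r (left, normalised CPM), the summed CPM of 12 homeostatic microglia markers (middle) and log2 Csf1r minus the mean log2 CPM of those markers (right), in treated, EAE and Control libraries. Points are libraries and all vertical axes start at 0. Csf1r and the marker sum have the same group order, and their log2 ratio stays between 1.75 and 2.17 in all libraries.

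Markers of other cells that carry these receptors or make these ligands differed between groups as well, and their part in the values of the 8 genes was not tested. Of all genes, 20.2% were called higher and 16.7% lower in EAE, and 4.81% lower in treated mice against EAE. In treated mice against Control 9.96% of all genes were called higher. Of 12 infiltrating monocyte and macrophage markers 7 rose and 0 fell in EAE, among them Ms4a7 (log2 5.35, SE 0.31) and lysozyme gene Lyz2 (log2 5.54, SE 0.34), and 5 fell and 0 rose in treated mice against EAE. Their sum ranged from 113 to 190 CPM in treated libraries, 537 to 732 CPM in EAE libraries and up to 128 CPM in Control libraries, where the median was 118 CPM. Most of the Control sum came from Vcan (50.8 CPM) and Fn1 (47.5 CPM), and most of the EAE sum from Lyz2 (436 CPM). Against Control, 6 of the 12 were called higher in treated mice and 0 lower, and 5 higher without treated replicate 1. The 5 not called in EAE were Ly6c2 (log2 -1.51, SE 0.95), Vcan (log2 0.02, SE 0.08), Fn1 (log2 0.74, SE 0.28), Chil3 (log2 1.79, SE 0.66) and Mrc1 (log2 0.57, SE 0.29). Arg1, among the 7 called, had overlapping libraries (1.94 ± 2.45 CPM in EAE and 0.337 ± 0.172 CPM in Control). Ly6c2, Vcan, Fn1, Chil3, Mrc1 and Arg1 were named after their values were seen. Of 8 dendritic cell markers 7 rose in EAE, led by the integrin Itgax (log2 6.16, SE 0.54), and 2 fell in treated mice (Itgax and Cd209a). The marker not called in EAE, Zbtb46, was at log2 -0.35 (SE 0.13, adjusted p = 0.0608) and was named after its value was seen. The dendritic sum ranged from 8.44 to 17.0 CPM in treated, 37.5 to 53.1 in EAE and 6.98 to 8.32 in Control libraries. Most of that sum came from Itgax in EAE (32.0 CPM) and from Zbtb46 in Control (4.59 CPM). All 12 T cell markers rose in EAE, and 5 fell in treated mice, 3 without treated replicate 1. Their sum ranged from 5.57 to 16.3 CPM in treated libraries, 23.6 to 29.6 CPM in EAE libraries and 4.43 to 5.01 CPM in Control libraries, lowest in treated replicate 1 of its group. Of 8 neutrophil markers 6 were tested, and edgeR and the DESeq2 Wald test called 0 of them in EAE against Control (2 at an unadjusted p under 0.05) and in treated mice against EAE (3 at an unadjusted p under 0.05). The 6 tested had a median of log2 1.24 in EAE against Control and log2 1.09 in treated mice against EAE. Each of them was above 0 in both comparisons. All 6 were called higher in treated mice than in Control, and 5 without treated replicate 1. Without that library 3 were also called higher in EAE than in Control. Their sum ranged from 22.5 to 66.3 CPM in treated, 9.36 to 23.7 in EAE and 4.71 to 14.3 in Control libraries, and the highest was treated replicate 1.

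Markers of cells that belong to the cord were read in the same way, beside the same shares over all genes. Of 12 neuron markers, background for Il34, 6 fell and 0 rose in EAE, such as the RNA-binding protein gene Elavl4 (log2 -0.46, SE 0.06), and edgeR called 0 in treated mice against EAE (0 at an unadjusted p under 0.05 and 0 by the DESeq2 Wald test). Of 9 astrocyte markers 3 rose in EAE, Aldh1l1 (log2 0.50, SE 0.07), Gfap (log2 0.79, SE 0.15) and Aqp4 (log2 0.52, SE 0.13). That share was near the 37.0% of all genes called. Without treated replicate 1, 1 astrocyte marker was also called lower in EAE. Of the 6 not called, Slc1a3, Sox9 and Aldoc leaned higher in EAE. Gja1 (log2 -0.22, SE 0.08), Slc1a2 (log2 -0.13, SE 0.06) and Gjb6 (log2 -0.10, SE 0.08) leaned lower. Slc1a3, Sox9, Aldoc, Slc1a2 and Gjb6 were named after their values were seen. In treated mice against EAE 1 astrocyte marker fell, Aldh1l1 (log2 -0.29, SE 0.07), and 0 without treated replicate 1. Of 9 oligodendrocyte markers 2 rose and 1 fell in EAE, a share near the 37.0% of all genes called in that comparison. In treated mice against EAE edgeR called 0 oligodendrocyte markers (1 at an unadjusted p under 0.05 and 1 by the DESeq2 Wald test). All 8 endothelial markers fell in EAE and 1, Tie1, was higher in treated mice than in EAE (log2 0.84, SE 0.21). Of 8 pericyte and fibroblast markers 5 rose and 1 fell in EAE and 5 fell in treated mice. The 5 that rose were the fibroblast genes Col1a1, Col1a2, Col3a1, Dcn and Lum, and the same genes fell in treated mice. Of the pericyte genes Rgs5 fell in EAE (log2 -0.86, SE 0.13). Pdgfrb (log2 -0.47, SE 0.20) and Kcnj8 (log2 0.08, SE 0.25) were not called. Dcn, Rgs5, Pdgfrb and Kcnj8 were named after their values were seen.

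The Csf1r pathway and myeloid transcription were described by 22 genes, among them transcription factors, kinases, phosphatases and adaptors. Not all of these genes act below the receptor. In EAE 19 rose and 2 fell (median log2 1.70, beside 0.01 over all genes), and in treated mice against EAE 15 fell and 0 rose (median log2 -1.03, beside -0.00 over all genes). The shares over all genes were 20.2% higher in EAE and 4.81% lower in treated mice against EAE. Spi1, the gene of the factor PU.1 that drives Csf1r transcription, had 5.32 ± 1.15 CPM in treated mice, 13.7 ± 1.66 CPM in EAE and 2.92 ± 0.582 CPM in Control. It was higher in EAE than in Control by log2 2.23 (SE 0.19, adjusted p = 3.28e-05) and lower in treated mice than in EAE by log2 -1.37 (SE 0.18, adjusted p = 0.00218). The Src-family kinase gene Fgr rose by log2 3.02 (SE 0.27) in EAE and fell by 1.96 on the log2 scale in treated mice (SE 0.25). Tyrobp, an adaptor that couples Csf1r and TREM2 to the kinase SYK, rose by log2 2.87 (SE 0.24), and the phospholipase Plcg2 by log2 1.63 (SE 0.14). The 2 falls in EAE were Cbl (log2 -0.51, SE 0.08), a ubiquitin ligase that marks activated Csf1r for breakdown, and Ptprz1 (log2 -0.44, SE 0.07), a phosphatase described elsewhere as a further receptor of IL-34. These 2 were named after their values were seen.

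**Figure D5:**
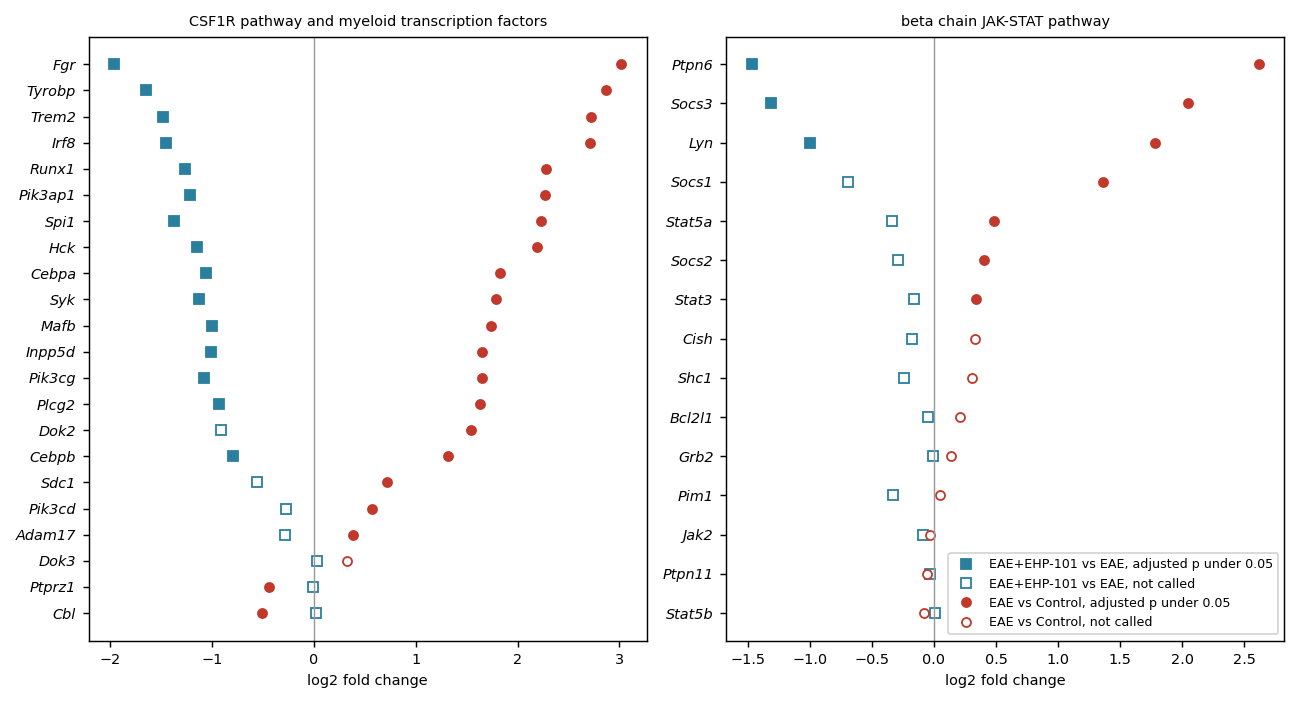
Log2 fold changes (horizontal axes) of 22 genes of the Csf1r pathway and myeloid transcription (left) and 15 genes of the beta chain JAK-STAT pathway (right). Squares are treated mice against EAE and circles EAE against Control, filled where the adjusted p was under 0.05. On the left 19 circles are called higher and 15 squares lower, and on the right 7 and 3.

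The JAK-STAT pathway below the beta chains was described by 15 genes. Among all genes tested 20.2% were called higher in EAE and 4.81% lower in treated mice against EAE. In EAE 7 of the 15 rose and 0 fell (median log2 0.33), and in treated mice against EAE 3 fell and 0 rose (median log2 -0.24). The genes that passed in both comparisons were Ptpn6, a phosphatase that restrains cytokine receptors, Socs3, an induced inhibitor of JAK kinases, and the kinase gene Lyn. Ptpn6 had 12.4 ± 3.75 CPM in treated mice, 34.3 ± 4.37 CPM in EAE and 5.55 ± 0.638 CPM in Control, higher by log2 2.62 (SE 0.20) in EAE and lower by log2 -1.47 (SE 0.19) in treated mice against EAE. Socs3 rose by log2 2.05 (SE 0.24) in EAE and fell by 1.31 on the log2 scale in treated mice (SE 0.23), and Lyn rose by log2 1.78 (SE 0.19) and was lower by log2 -1.005 (SE 0.18) in treated mice. Jak2, the kinase bound to the beta chain, was at log2 -0.03 (SE 0.06, adjusted p = 0.714) in EAE, and Stat5b at log2 -0.08 (SE 0.06, adjusted p = 0.346), neither of them called. Stat5a rose by log2 0.48 (SE 0.14, adjusted p = 0.0233) and Stat3 by log2 0.34 (SE 0.06). Cish, a classical target of STAT5, was at log2 0.33 (SE 0.17, adjusted p = 0.145). Jak2, Stat5a, Stat5b and Cish were named after their values were seen.

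Of 9 other cytokines and receptors of the same families 5 passed the count filter. Csf3, Il3, Il5 and Il5ra had at most 2, 2, 5 and 2 counts in any library and were not tested, so the ligands of the IL-3 and IL-5 receptors were near the limit of detection in all groups. Of the 5 others Csf3r, the receptor of granulocyte colony-stimulating factor, had 17.8 ± 6.06 CPM in treated mice, 36.0 ± 6.96 CPM in EAE and 8.55 ± 1.01 CPM in Control. It rose by log2 2.07 (SE 0.23) in EAE and fell by 1.02 on the log2 scale in treated mice against EAE (SE 0.22, adjusted p = 0.0209). Kitl, the stem cell factor gene, fell by 0.39 on the log2 scale in EAE (SE 0.05). Flt3l (log2 0.39, SE 0.16, adjusted p = 0.0756) and Kit (log2 -0.19, SE 0.14, adjusted p = 0.329) were not called in EAE.

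Genes known to induce or mark Csf2 production in T cells were also read, 13 in number, of which 8 passed the count filter. In EAE 5 rose and 1 fell (median log2 0.76), and in treated mice against EAE 1 fell. For comparison, 20.2% of all genes were called higher in EAE and 4.81% lower in treated mice against EAE. Il1b, a cytokine that drives GM-CSF release by T cells, had 0.717 ± 0.352 CPM in treated mice, 3.20 ± 1.66 CPM in EAE and 0.131 ± 0.0988 CPM in Control. It rose by log2 4.58 (SE 0.57) in EAE and fell by 2.15 on the log2 scale in treated mice (SE 0.43, adjusted p = 0.0136). Tbx21, a factor of type 1 helper T cells, rose by log2 3.63 (SE 0.65) and the receptor chain Il12rb1 by log2 0.99 (SE 0.19) in EAE. Rora, a nuclear receptor that neurons also express, fell by 1.05 on the log2 scale (SE 0.12). Il17a had 0, 1 and 0 counts and Ifng 6, 12 and 0 counts summed over the treated, EAE and Control libraries, and neither passed the count filter. With no count filter edgeR called Ifng in EAE against Control (adjusted p = 0.0231) but not in treated mice against EAE (0.712), and Il17a in neither (0.512 and 0.712).

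Genes whose pattern over the 9 libraries was most like that of a member were found by the root mean square difference of centred log2 CPM, over 12933 protein-coding genes of a mean log2 CPM of at least 1. Those nearest to Csf2rb were Csf2rb2, its near copy, at 0.18 log2 units, then Fcgr2b, an inhibitory Fc receptor, at 0.22, Cd300lf at 0.23 and Slc15a3 at 0.24. Nearest to Csf1r were Dnase1l1, Limd2 and Glipr2 at 0.08 and Otulinl at 0.09. Nearest to Csf1 were Plekha2 at 0.07 and Clu, Nmi and Rps13 at 0.08. For Il34, whose level varied little, Ddx47, Aldh7a1, Pcca and Aatf were nearest at 0.04. These distances share the libraries and their depth and carry no test.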

How the data were processed

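Poly-A RNA of spinal cord was made into stranded libraries and read as single-end 50-base reads on an Illumina HiSeq, per the labels' protocols. The deposited values are raw read counts per Entrez gene with exon coordinates and lengths, per the file headers. The submitters' processing notes name the build mm10 and the tools featureCounts 1.6.1, HISAT2 2.1.0, Trimmomatic 0.36 and DESeq2 1.20.0, without their roles. No source used here states the strand setting or how multiply mapped reads were treated. RefSeq (GRCm38.p6) gave symbols to 25275 of 27179 identifiers. Deposited coordinates count from 1.

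In R 4.3.3, edgeR 4.0.16 (filterByExpr with the group factor, TMM, 1 mean per group over 9 libraries, quasi-likelihood test) was fitted to the 16749 genes kept, and 3 contrasts were tested. Standard errors (SE) were taken as absolute log2 fold change over the square root of F, and 95% intervals use 11.3 degrees of freedom. The mean log2 level of the microglia markers used a prior of 0.5 CPM, and pattern distances a prior count of 2. The series' design text calls the 3 samples of a group biological replicates. Alternatives were DESeq2 1.42.0 size factors and its Wald test, library totals, upper quartile factors, no count filter, 2-group fits, a replicate block, removal of each library's gene length trend and each library left out. The fit was tested on simulated data in which 200 of 16749 genes were changed. Fewer genes were changed there than were called in the real data, so its recovery rates need not hold for these data. Of genes changed 1.5-fold it recovered 53.7% in EAE against Control and 64.2% in each other comparison, and of those changed 4-fold 95.5% to 97.0%. A gene that was not called may therefore still differ by a small fold. All 8 members were named whatever their values; in lists, up to 4 genes with the smallest p in EAE against Control and up to 2 in treated mice against EAE, plus those marked in the text; and for 4 members the 4 genes of most like pattern. A gene that this rule names is not reported here. The members and the lists were chosen with earlier results of these data known. Csf2rb shares 391 exon bases with gene 100504034 on the other strand, which had 0 counts in all libraries.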

Additional observations from a re-analysis of the deposited data

How the results depend on the processing

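Over 357 refits of the log2 fold changes of the 7 tested genes, 325 kept their direction and their side of the threshold, 19 lost a call and 11 gained one. The 2 reversals were both Il34, log2 -0.03 for EAE against Control with the gene length trend removed and log2 0.02 for treated mice against Control with library totals. For EAE against Control 6 of the 7 genes were called under every alternative run. For treated mice against EAE the count was 5 when only the 2 groups were fitted, and 2 to 5 with a library left out, 5 without Control replicate 3. For treated mice against Control it was 1 to 4 with a library left out: 2 without Control replicate 1 and 1 without treated replicate 2 or 3. With the length trend removed the genes lower in EAE than in Control numbered 1703 (2800 as reported), and those higher and lower in treated mice than in Control 763 and 788 (1669 and 1645). Genes higher in treated mice than in EAE (72) numbered 151 with the DESeq2 Wald test, 169 when only the 2 groups were fitted and 44 with the replicate block, which also gave 1095 genes higher in treated mice than in Control. With a library left out the genes called in EAE against Control numbered 2444 to 3755 higher and 1805 to 3206 lower, the lowest both without EAE replicate 2; in treated mice against EAE 18 to 199 higher and 397 to 974 lower, the lowest both without EAE replicate 2 and the highest both without Control replicate 3; and in treated mice against Control 240 to 1930 higher and 400 to 1842 lower, the lowest both without treated replicate 2. The level of Csf1r relative to the summed microglia marker CPM differed by log2 0.07 between EAE and Control and by 0.07 between treated and EAE mice, in place of 0.24 and -0.06. Of 1428 refitted list counts 143 moved by over 1.5 times. No pairing of the mice by the replicate numbers of the labels was seen. Deviations of same-numbered libraries correlated at -0.187 to 0.123, and the own number gave the highest correlation in 1 of 9 cases. These deviations are taken from means of 3 libraries and are not independent, so they cannot exclude a pairing. The replicate block changed no member's call. The cause of these differences was not tested. At this depth, with 0 to 5 counts a library, Csf2 was tested without the count filter only and was not called.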
